A study of Mus musculus with 6 samples.

Results

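The genes described here are 10 genes of cAMP, PKA and CREB signalling, chosen by name from the 37273 genes of the GENCODE annotation of the mouse genome mm9 (NCBIM37). They are the adenylyl cyclases Adcy1 and Adcy8, the protein kinase A (PKA) subunits Prkaca, Prkacb and Prkar1b, the A-kinase anchoring proteins Akap5 and Akap6, the cAMP phosphodiesterases Pde4b and Pde4d, and the transcription factor gene Creb1. All 10 genes passed the minimum of 20 reads over both libraries in every comparison of gene bodies and promoters. Chromatin came from the hippocampus of C57/BL6 mice aged 6 months, given as C57Bl6/J males over a range of adult ages in the methods. Fear-conditioned mice (FC) were given foot shocks in a context and a later memory test in it, and context-only control mice (CON) were handled in the same manner without a shock. For each of the 2 groups, 1 library was immunoprecipitated with an antibody to histone H4 acetylated at lysine 5 (H4K5ac-ChIP), 1 was a mock immunoprecipitation (IgG-IP) and 1 was genomic DNA (input). Each group thus has a single library of each kind and no replicates, the spread between animals is unknown, and no test between the groups was made. The methods name several hippocampal samples per group, and how these relate to the deposited libraries is not given in the sources used here.

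cAMP is made from ATP by adenylyl cyclases. It binds the regulatory subunits of PKA and thereby frees the catalytic subunits, which phosphorylate many synaptic and nuclear proteins, among them CREB, the factor that binds the cAMP response element (CRE). Anchoring proteins hold PKA at given sites in the cell, and phosphodiesterases of the PDE4 family end the signal by breaking cAMP down. In the hippocampus, the pathway is known for its part in long-lasting synaptic plasticity and memory. H4K5ac is a histone mark that is found over promoters and bodies of transcribed genes.

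The promoters were searched for the CRE, since it is the site through which CREB acts on its target genes. In the 300 bp window from 250 bp before to 50 bp after each start site, the full CRE (TGACGTCA) was found at no start site of the 10 genes, and 2.32% of the 22367 protein-coding promoters held it. The core TGACG, which the full CRE contains, was searched on both strands and was held by 23.3% of these promoters. At the first annotated start it was found in all 3 PKA subunit genes, 2 times in Prkaca (at -120 and -6 bp), once in Prkacb (at -88 bp) and once in Prkar1b (at -49 bp), and in none of the other 7 genes. Most of the later coding start sites searched did not hold it. Those that did were coding start 5 of Prkar1b, coding starts 3 and 7 of Pde4b, and coding starts 3 and 9 of Pde4d. Coding start 3 of Pde4d had 2 matches (at -231 and -194 bp). A match describes the letters and not a bound site, and whether matches and H4K5ac are related was not tested. The 250 bases before the start are shown for the PKA subunits, the genes with a match at the first annotated start. They are also shown for the Pde4d start with the most matches. Capitals mark the core TGACG or its reverse complement CGTCA, and the mm9 sequences are written 5' to 3' on the strand of the gene.
Prkaca, first start, chr8:86496627-86496876 (plus strand): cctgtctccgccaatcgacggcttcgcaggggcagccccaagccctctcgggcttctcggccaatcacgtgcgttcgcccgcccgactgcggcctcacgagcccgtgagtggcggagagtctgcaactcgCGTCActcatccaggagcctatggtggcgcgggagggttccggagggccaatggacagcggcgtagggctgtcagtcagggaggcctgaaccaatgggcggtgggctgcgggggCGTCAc
Prkacb, first start, chr3:146475925-146476174 (minus strand): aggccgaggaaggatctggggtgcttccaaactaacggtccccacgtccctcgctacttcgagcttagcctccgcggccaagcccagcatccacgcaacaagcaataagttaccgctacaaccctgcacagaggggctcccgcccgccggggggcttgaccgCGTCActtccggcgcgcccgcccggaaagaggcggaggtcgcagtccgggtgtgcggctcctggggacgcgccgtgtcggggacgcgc
Prkar1b, first start, chr5:139625956-139626205 (minus strand): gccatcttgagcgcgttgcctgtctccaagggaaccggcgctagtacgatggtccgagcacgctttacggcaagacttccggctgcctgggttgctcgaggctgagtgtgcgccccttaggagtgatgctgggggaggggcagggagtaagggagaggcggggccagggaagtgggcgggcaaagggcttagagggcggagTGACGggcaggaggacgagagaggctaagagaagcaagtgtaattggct
Pde4d, coding start 3, chr13:110050598-110050847 (plus strand): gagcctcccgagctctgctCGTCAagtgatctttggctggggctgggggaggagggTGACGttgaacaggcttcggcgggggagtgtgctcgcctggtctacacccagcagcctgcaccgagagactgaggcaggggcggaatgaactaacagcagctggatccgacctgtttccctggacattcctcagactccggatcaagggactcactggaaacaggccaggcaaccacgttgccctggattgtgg

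The libraries held 14549689 to 45673239 aligned reads, and the IgG-IP libraries were the smallest in both groups. Read density was expressed as reads per kb scaled to the total reads of the library (RPKM), and intervals in parentheses are exact 95% intervals that cover counting error only. The tissue was checked by the bodies of marker genes. In FC, 7 of 9 hippocampal neuron genes and 5 of 7 glial genes had at least 1.5-fold more H4K5ac-ChIP than IgG-IP, compared with 2 of 9 tested genes of other tissues and 55% of all genes. In CON, 5 of 9, 6 of 7 and 2 of 9 did so, and 50.6% of all genes. Over input, 1 of 9, 3 of 7 and 1 of 9 passed in FC (22.7% of all genes) and 4, 4 and 1 in CON (41.2%), so over input in FC the neuronal genes and those of other tissues had the same count. The neuronal gene Neurod6 was below IgG-IP in both groups, with log2 ratios of -0.81 and -0.71.

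**Figure D1:**
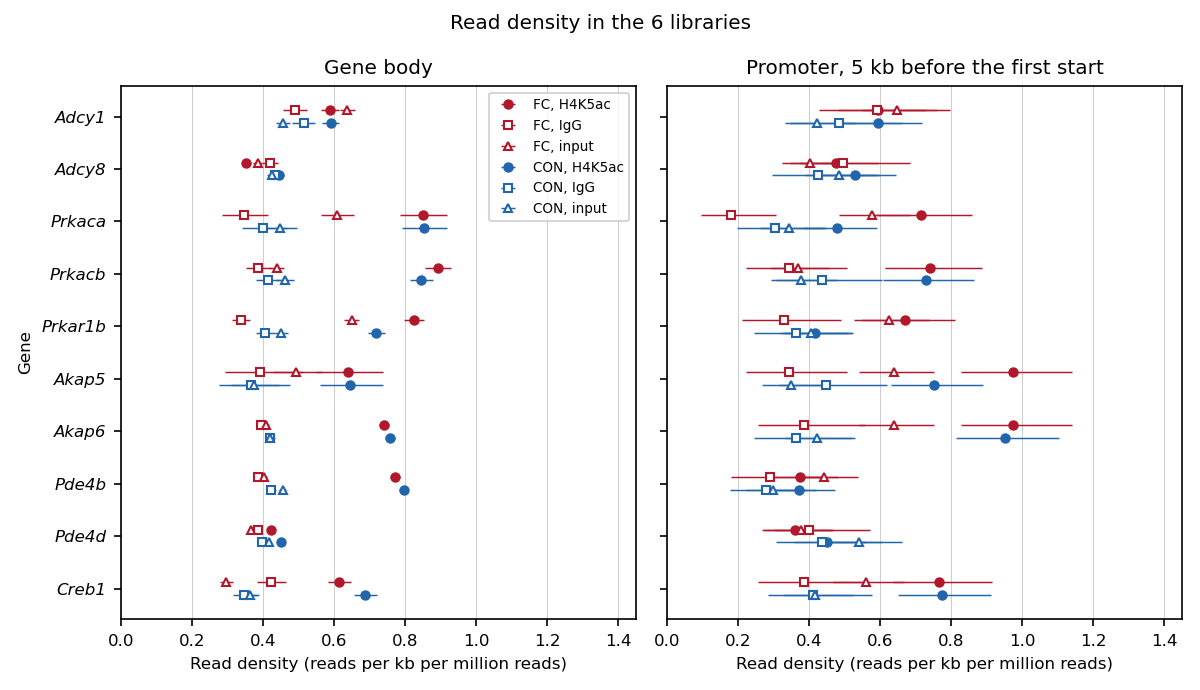
Read density in RPKM (x axis) of the 10 genes (y axis) in the gene body (left) and the promoter (right), in red for FC and blue for CON, with filled circles for H4K5ac-ChIP, open squares for IgG-IP, open triangles for input and bars for exact 95% Poisson intervals. In the gene body, the filled circles of the PKA subunits, the anchoring proteins, Pde4b and Creb1 lie right of both control libraries of their group, whereas those of Adcy8 and Pde4d lie near them.

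Over the gene body, H4K5ac-ChIP exceeded IgG-IP by at least 1.5-fold at 6 of the 10 genes in the FC libraries and at 7 in those of CON. The corresponding share of all genes was 55% (13103 of 23813 genes tested) in FC and 50.6% in CON. The FC count for the 10 genes was thus close to that of genes in general, and the CON count was somewhat higher. All 3 PKA subunits, both anchoring proteins and Pde4b passed in both groups, Creb1 passed in CON only, and neither cyclase nor Pde4d passed in either group. Less the median of all genes, most of these calls were lost in FC and all of them in CON. The median log2 ratio over the 10 genes was 0.80 in FC and 0.84 in CON, and that over all genes was 0.69 and 0.59. With input as the control library, 4 of the 10 genes passed in FC (22.7% of all genes) and 7 in CON (41.2% of all genes). The 10 genes were not alike, and their log2 ratios over IgG-IP ran from -0.25 (Adcy8) to 1.30 (Prkaca) in FC and from 0.03 (Adcy8) to 1.09 (Prkaca) in CON.

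**Figure D2:**
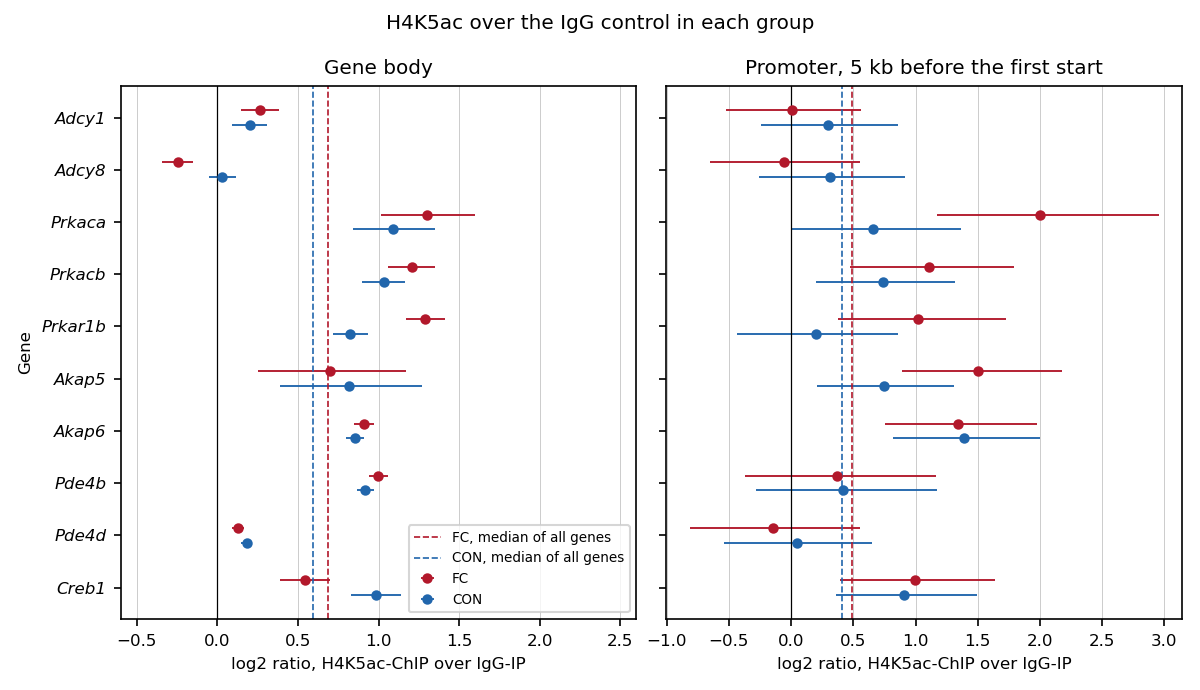
Log2 H4K5ac-ChIP/IgG-IP ratio (x axis) for the 10 genes (y axis) in the gene body (left) and promoter (right), with points for FC (red) and CON (blue), bars for exact 95% intervals and dashed lines for the median of all genes. In the gene body, the PKA subunits lie right of both medians, and Adcy1, Adcy8 and Pde4d lie left of both.

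Adcy1 and Adcy8 encode the adenylyl cyclases that are stimulated by calcium and calmodulin. Both had low ratios of H4K5ac-ChIP over IgG-IP in the gene body. At Adcy1, the density of H4K5ac-ChIP was at the 60.4th percentile of all genes in FC and the 62.2nd in CON, and that of IgG-IP was at the 84.9th and 86.9th. Adcy1, on the plus strand of chromosome 11 (chr11:6963492-7078509), had an H4K5ac-ChIP density of 0.588 RPKM in FC and 0.591 in CON, against 0.489 and 0.515 in IgG-IP and 0.638 and 0.456 in input. The H4K5ac-ChIP values of the groups were thus nearly equal, the lowest and the highest value of Adcy1 were both from input, and the FC and CON log2 ratios over IgG-IP were 0.26 (0.15 to 0.38) and 0.20 (0.09 to 0.31). Adcy8, on the minus strand of chromosome 15 (chr15:64530604-64753858), had an H4K5ac-ChIP density of 0.354 RPKM in FC and 0.444 RPKM in CON, 0.420 and 0.435 in IgG-IP, and 0.386 and 0.425 in input. In FC, H4K5ac-ChIP at Adcy8 was below both control libraries, and its log2 ratio over IgG-IP was -0.25 (-0.34 to -0.15). In CON it was level with IgG-IP, with 0.03 (-0.05 to 0.12).

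Close to the start sites the ratios over IgG-IP were higher, and IgG-IP itself was lower there than over the bodies of both genes. In CON, H4K5ac-ChIP at the start of Adcy1 was slightly below its gene body value of 0.591 RPKM. Within 1 kb of the start, H4K5ac-ChIP at Adcy1 was 0.680 RPKM in FC and 0.570 in CON, and IgG-IP was 0.240 and 0.273. At Adcy8 it was 0.443 and 0.570 RPKM, and IgG-IP was 0.240 and 0.182. H4K5ac at the cyclases was above IgG-IP around the start in all 4 pairs of libraries, although only 6 to 9 IgG-IP reads lay in each window and the interval of the log2 ratio at Adcy8 in FC included 0 (0.88, -0.35 to 2.32). Input had 0.405 and 0.338 RPKM there at Adcy1 and 0.503 and 0.197 at Adcy8, so H4K5ac-ChIP at the start of Adcy8 was below input in FC. Over the 5 kb promoter, the log2 ratio over IgG-IP was 0.01 (-0.53 to 0.56) and 0.29 (-0.24 to 0.86) at Adcy1, and -0.06 (-0.65 to 0.56) and 0.32 (-0.26 to 0.92) at Adcy8, in FC and CON.

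Prkaca and Prkacb encode catalytic subunits of PKA, and Prkar1b a regulatory subunit that is abundant in the brain. These 3 genes had the highest gene body ratios of the 10 over IgG-IP in FC, but not over input. Prkaca, on the plus strand of chromosome 8 (chr8:86496877-86520344), had an H4K5ac-ChIP density of 0.851 RPKM in FC and 0.853 RPKM in CON, 0.346 and 0.400 in IgG-IP, and 0.609 and 0.448 in input. Prkacb, on the minus strand of chromosome 3 (chr3:146392543-146475924), had 0.893 and 0.846 RPKM in H4K5ac-ChIP, 0.387 and 0.414 in IgG-IP, and 0.439 and 0.462 in input. Prkar1b, on the minus strand of chromosome 5 (chr5:139493260-139625955), had 0.825 and 0.720 RPKM in H4K5ac-ChIP, 0.337 and 0.406 in IgG-IP, and 0.650 and 0.452 in input. H4K5ac-ChIP was the highest of the 3 libraries at each of these genes in both groups, and the margin over input in FC was widest at Prkacb. The log2 ratio over IgG-IP was 1.30 (1.01 to 1.60) and 1.09 (0.84 to 1.35) at Prkaca in FC and CON, which placed the gene at the 79.6th and 78.9th percentile of all genes tested. It was 1.21 (1.06 to 1.35) and 1.03 (0.90 to 1.17) at Prkacb. At Prkar1b it was 1.29 (1.17 to 1.41) in FC against 0.82 (0.72 to 0.93) in CON, the largest excess of FC over CON in this ratio among the 10 gene bodies, and there H4K5ac-ChIP was higher and IgG-IP lower in FC. Over input, the order of the groups at Prkar1b was the other way round, with 0.34 in FC and 0.67 in CON. Prkaca had 0.48 and 0.93 over input, and Prkacb 1.03 and 0.87, so Prkacb was the one PKA gene past 1.5-fold over input in FC, where Creb1 (1.05) was the highest of the 10 genes.

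Within the PKA genes, the H4K5ac-ChIP density differed between the start sites, and so did the control libraries. At the first start of Prkaca, the density within 1 kb was 0.585 RPKM in FC (37 reads) and 0.292 in CON (21 reads). At its second coding start, 4.095 kb downstream, it was 1.249 RPKM (79 reads) and 1.265 (91 reads). The second start thus had the higher density in both groups, but not the higher ratio over IgG-IP, which was 3.09 at the first and 1.60 at the second in FC, and 1.68 and 1.38 in CON, on the log2 scale. IgG-IP had 2 and 12 reads at these starts in FC and 3 and 16 in CON, and the intervals of the ratio overlapped. FC over CON, the log2 ratio was 1.00 (0.19 to 1.85) at the first and -0.02 (-0.47 to 0.43) at the second. Input at the first start was also higher in FC, with 0.438 RPKM (40 reads) against 0.183 (13 reads) in CON, and its part in the difference was not tested. At the 3 coding starts of Prkacb, 0, 31.5 and 41.8 kb from the first, H4K5ac-ChIP was 1.28, 1.01 and 1.79 RPKM in FC and 0.903, 0.806 and 1.60 in CON. At the first of them the log2 ratio of FC over CON was 0.50 (0.01 to 1.00), and input was 0.241 RPKM in FC and 0.366 in CON. The third start, shared by 3 annotated transcripts, had the highest density in both groups. Its input density was also the highest, with 0.241, 0.186 and 0.547 RPKM at the 3 starts in FC and 0.366, 0.408 and 0.605 in CON. The log2 ratio over IgG-IP in FC was 2.90, 1.42 and 2.38, with the first start above the third. In CON the ratio was 1.58, 1.27 and 1.81. The 1 kb window of Prkacb with the most FC H4K5ac-ChIP reads (60 in FC, 50 in CON, 1 read per position and strand) lay at -0.336 kb from it. Prkar1b has 5 coding starts, with 0.316 to 0.712 RPKM in FC and 0.250 to 0.750 in CON. All 5 densities were below the mean of the gene body in FC, and coding start 4 had the lowest density in both groups. The ratio over IgG-IP was not below that of the body at each start, since it was 1.92 and 2.05 at the first 2 starts in FC, from 5 IgG-IP reads at each. Of the 5000 bp before the first start, 4779 lie inside the neighbouring gene Heatr2. Reads upstream of that start thus cannot be told apart from those of Heatr2.

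Akap5 encodes an anchoring protein of the postsynaptic density, and Akap6 one of the nuclear envelope. Akap5 is the shortest of the 10 genes (9.263 kb on the plus strand, chr12:77425878-77435140) and Akap6 spans 452 kb on the same chromosome (chr12:53800370-54252002, plus strand). Akap5 had an H4K5ac-ChIP density of 0.639 RPKM in FC and 0.645 RPKM in CON, 0.393 and 0.367 in IgG-IP, and 0.494 and 0.374 in input. Akap6 had 0.741 and 0.758 RPKM in H4K5ac-ChIP, 0.395 and 0.420 in IgG-IP, and 0.409 and 0.419 in input. H4K5ac-ChIP exceeded both controls at both genes in both groups. The log2 ratio over IgG-IP was 0.70 (0.25 to 1.17) and 0.82 (0.39 to 1.27) at Akap5, from 53 and 56 IgG-IP reads, and 0.91 (0.85 to 0.97) and 0.85 (0.80 to 0.91) at Akap6. The anchoring protein genes also had the highest promoter densities of the 10 in FC, each with 154 reads or 0.975 RPKM. Input was also high at both promoters in FC, each with 146 reads or 0.639 RPKM, at the 85.7th percentile of all genes. In CON, the promoters had 0.751 RPKM at Akap5 and 0.951 at Akap6, and input had 0.349 and 0.423. Along the gene, H4K5ac at Akap5 declined from 0.820 RPKM in the first 5 of 20 equal bins of the body to 0.451 in the last 5 in FC, and from 0.901 to 0.432 in CON, whereas IgG-IP had 0.416 and 0.475 in FC and 0.576 and 0.419 in CON. Input declined as well in FC, from 0.652 to 0.407 RPKM, and had 0.316 in both sections in CON. At Akap6, H4K5ac-ChIP was 0.840 and 0.712 RPKM in these sections in FC and 0.826 and 0.718 in CON, with 0.705 and 0.744 in the middle 10 bins. Input at Akap6 was 0.435 and 0.374 in the first and last sections in FC and 0.416 and 0.412 in CON. IgG-IP there was 0.379 and 0.433 in FC and 0.431 and 0.442 in CON.

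Pde4b and Pde4d encode cAMP-specific phosphodiesterases with many isoforms that start from separate promoters. In both, the density of H4K5ac-ChIP was higher toward the end of the gene than at its beginning. Pde4b, on the plus strand of chromosome 4 (chr4:101760148-102279864), had an H4K5ac-ChIP density of 0.772 RPKM in FC and 0.797 RPKM in CON, 0.387 and 0.422 in IgG-IP, and 0.403 and 0.456 in input. Its log2 ratio over IgG-IP was 1.00 (0.94 to 1.06) and 0.92 (0.86 to 0.97). Pde4d, on the plus strand of chromosome 13 (chr13:109240142-110743669), had 0.424 and 0.450 RPKM in H4K5ac-ChIP, 0.388 and 0.397 in IgG-IP, and 0.367 and 0.419 in input, with log2 ratios over IgG-IP of 0.13 (0.09 to 0.17) and 0.18 (0.15 to 0.21). The gene with the longest body of the 10, 1504 kb, was thus close to the controls as a whole.

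The whole-body value of Pde4d was a mean over unlike stretches. From the first annotated start to the first coding start, 204 kb downstream, H4K5ac-ChIP was 0.286 RPKM in FC and 0.330 in CON, with log2 ratios over IgG-IP of -0.37 (-0.48 to -0.26) and -0.19 (-0.29 to -0.09). From there to coding start 2, at 667 kb, the ratios were -0.18 and -0.24. Over input they were -0.27 and -0.30 in the first of these stretches and 0.10 and -0.26 in the second. Between coding starts 4 and 5, at 992 and 1131 kb, they were 0.54 and 0.57, and between coding starts 9 and 10, a stretch of 1.781 kb, they were 1.42 (0.44 to 2.55) and 1.44 (0.50 to 2.51), from 10 and 11 IgG-IP reads. Over input, this last stretch had 0.63 and 0.76. In both groups, H4K5ac-ChIP was therefore below the mock control in the first 667 kb, which only transcripts from the earliest starts cover. It was above the mock control in each stretch after coding start 4, in both groups. Over input, the stretch that ends the gene was level in FC, with 0.07 (-0.13 to 0.27), and had 0.62 (0.39 to 0.85) in CON. IgG-IP itself stayed between 0.369 and 0.455 RPKM in FC over the 12 stretches, whereas input in FC went from 0.324 in the second to 0.664 in the tenth. In the first and the last 5 bins of the body, H4K5ac-ChIP at Pde4d was 0.297 and 0.547 RPKM in FC, and 0.319 and 0.599 in CON. The 1 kb window of Pde4d with the most FC reads was also the one with the most CON reads, 69 and 67 reads (1 per position and strand) against 5 and 9 in IgG-IP. It lay at -80.8 kb from coding start 8, inside the gene and at no annotated coding start.

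Pde4b showed the same direction with a sharper step. Before its second coding start, at 167 kb, H4K5ac-ChIP was 0.525 RPKM in FC and 0.571 in CON, and from there to coding start 3, at 334 kb, it was 0.868 and 0.840. IgG-IP was 0.369 and 0.421 before that start and 0.387 and 0.391 after it. The density did not step up at the start itself. In windows of 10 kb counted from the first start, it went from 0.544 RPKM in FC and 0.601 in CON in the window that opens at 130 kb to 1.11 in both groups in the window that opens at 140 kb, upstream of the second start. The stretch with the highest density lay between coding starts 6 and 7 near the end of the gene, with 1.49 RPKM in FC and 1.22 in CON over 2.165 kb. Input was also highest there, with 0.607 and 0.508 RPKM. The log2 ratio over input was 1.30 and 1.27 in this stretch, close to that of the stretch before it (1.24 in FC), and the intervals overlapped those of the stretches on either side. The promoter before the first start of Pde4b had 0.373 RPKM in both groups, the lowest promoter density of the 10 in CON, and in FC only that of Pde4d (0.361) was lower.

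**Figure D3:**
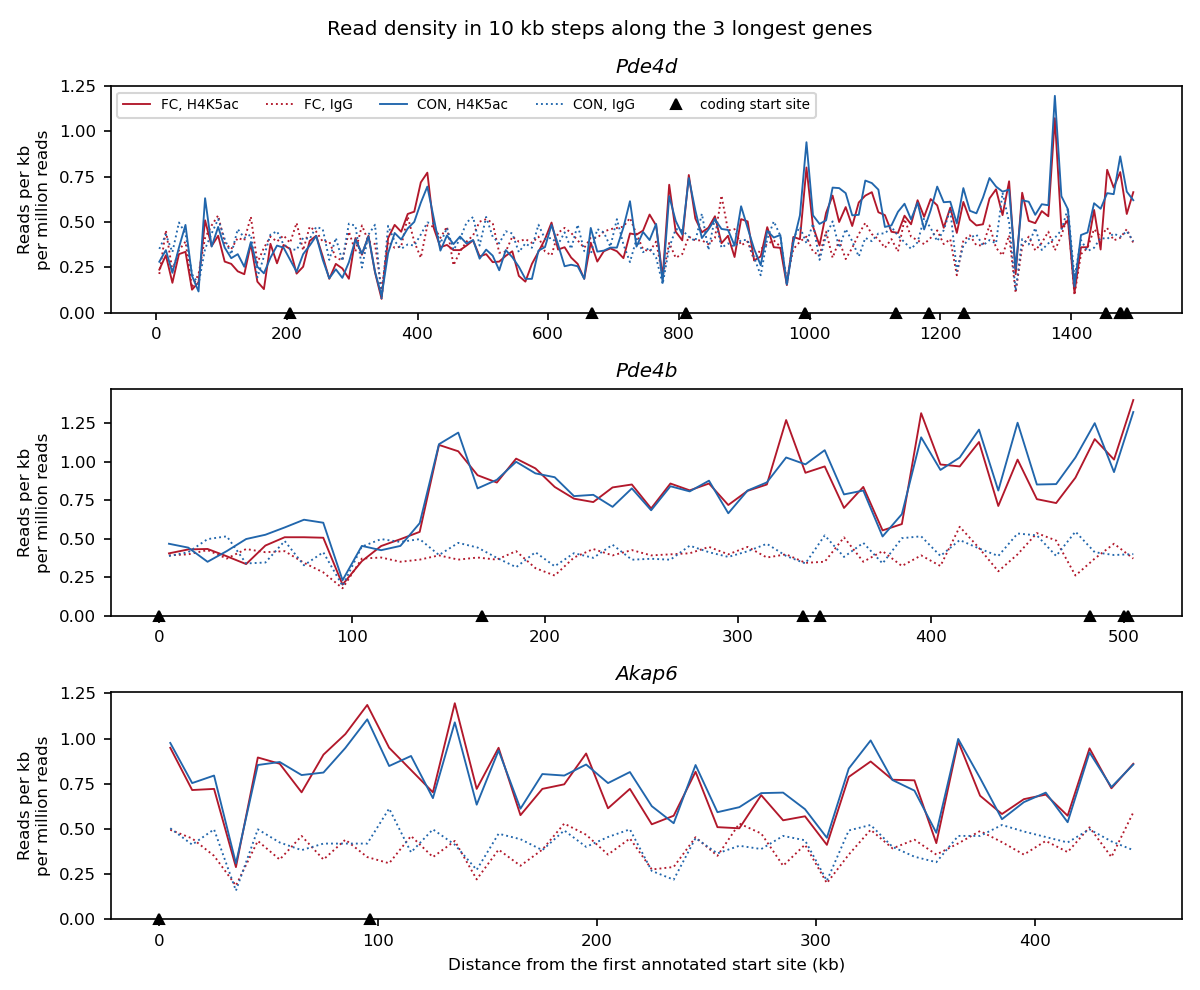
Read density in RPKM (y axis) in steps of 10 kb against distance from the first annotated start (x axis, kb) at Pde4d, Pde4b and Akap6, with solid lines for H4K5ac-ChIP, dotted lines for IgG-IP, red for FC, blue for CON and triangles for coding starts. The solid lines rise toward the end of Pde4d and step up before the second triangle of Pde4b in both groups, while the dotted lines stay level.

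Creb1 encodes the transcription factor CREB. It lies on the plus strand of chromosome 1 (chr1:64579378-64651121) and had the lowest GC content of the 10 gene bodies, 38.5%. H4K5ac-ChIP was 0.615 RPKM in FC and 0.689 in CON, IgG-IP was 0.422 and 0.348, and input was 0.298 and 0.364. H4K5ac-ChIP was lower and IgG-IP higher in FC than in CON, and the log2 ratio over IgG-IP in FC, 0.54 (0.39 to 0.70), was just under 1.5-fold, whereas it was 0.98 (0.83 to 1.14) in CON. Over input the order was the other way round, with 1.05 (0.93 to 1.17) in FC against 0.92 (0.80 to 1.04) in CON. Along the gene, H4K5ac-ChIP was 0.628, 0.580 and 0.670 RPKM in the first 5, the middle 10 and the last 5 of 20 equal bins in FC, and 0.693, 0.669 and 0.724 in CON. The promoter had 0.766 RPKM in FC and 0.773 in CON, with log2 ratios over IgG-IP of 0.99 (0.39 to 1.64) and 0.91 (0.36 to 1.49). Input at the promoter was 0.561 RPKM in FC and 0.417 in CON.

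The same contrast was seen in 10 kb windows inside the gene bodies. Of the 302 windows that fitted inside these genes, 115 (38.1%) passed 1.5-fold over IgG-IP in FC and 128 (42.4%) in CON, and the shares over all gene bodies were 41.2% and 40.6%. Both windows of Prkaca and all 7 of Prkacb passed in both groups, as did 11 and 9 of 12 at Prkar1b, 34 and 35 of 44 at Akap6, and 34 and 37 of 50 at Pde4b. At the other end were Adcy8, with 0 and 1 of 21, and Pde4d, with 22 and 31 of 149. Adcy1 had 3 and 0 of 10 windows, and Creb1 2 and 6 of 7. No window of this size fitted into Akap5.

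Next, H4K5ac-ChIP was compared between FC and CON, the comparison that addresses fear memory. A difference was counted where the log2 ratio was at least 0.32 in size. At 9 of the 10 gene bodies the libraries differed by less. The exception was Adcy8, with 2497 reads in FC and 3568 in CON and a log2 ratio of -0.33 (-0.40 to -0.25), at the 5.47th percentile of all genes. Past this limit, 5.69% of all genes were lower in FC and 12.7% higher, and no gene of the 10 was higher. The median log2 ratio over the 10 genes was -0.02, and over all genes 0.04. Prkar1b was the highest with 0.20 (0.13 to 0.26), and after Adcy8 the lowest were Creb1 with -0.16 (-0.27 to -0.06) and Pde4d with -0.09 (-0.11 to -0.06). The remaining 6 genes lay between -0.05 and 0.08.

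H4K5ac-ChIP was also lower in FC in the flanks of Adcy8. In the 100 kb downstream of it, the log2 FC/CON ratio of H4K5ac-ChIP was -0.26 (-0.38 to -0.14), and in the 100 kb upstream -0.18 (-0.33 to -0.02). Input had -0.06 downstream and -0.39 upstream, so upstream of the gene input differed more between the groups than H4K5ac-ChIP, and IgG-IP had -0.05 and 0.13. In IgG-IP, the ratio over the body of Adcy8 was -0.05 (-0.16 to 0.05), and in input -0.14 (-0.21 to -0.07). Relative to the median of genes matched for GC content in 1% steps, the H4K5ac-ChIP ratio was -0.27, which is inside the limit of 0.32. It was also inside it less the IgG-IP ratio of the gene (-0.28) and less the input ratio (-0.19). Less the input ratio, the gene bodies past the limit were instead Adcy1 (-0.49), Prkaca (-0.45), Akap5 (-0.42) and Prkar1b (-0.33), and less the IgG-IP ratio they were Creb1 (-0.44) and, higher in FC, Prkar1b (0.47). The flanks were examined after the value of the gene body was known. Flanks of other genes differed between the groups too. Upstream of Adcy1 the H4K5ac-ChIP ratio was -0.30 (-0.41 to -0.19), although it was -0.01 over the body of Adcy1. At Prkar1b it was 0.20 (0.11 to 0.28) downstream and 0.13 (0.04 to 0.21) upstream.

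The control libraries differed between the groups as well. The input ratio of FC over CON was 0.40 to 0.52 on the log2 scale at Adcy1, Prkaca, Prkar1b and Akap5, whose bodies have a GC content of 44.8% to 50.1%, and -0.29 to -0.03 at the other 6 genes, at 38.5% to 41.1%. Over all genes its median was 0.31. The IgG-IP ratio ran from -0.27 at Prkar1b to 0.28 at Creb1. Prkar1b and Creb1 had the largest excess and the largest deficit of FC over CON in H4K5ac relative to IgG-IP. They were thus the genes at which IgG-IP differed most between the groups. By construction, that excess or deficit is the H4K5ac-ChIP ratio less the IgG-IP ratio. At both genes the IgG-IP ratio was the larger of these in size. Why IgG-IP differed was not tested.

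**Figure D4:**
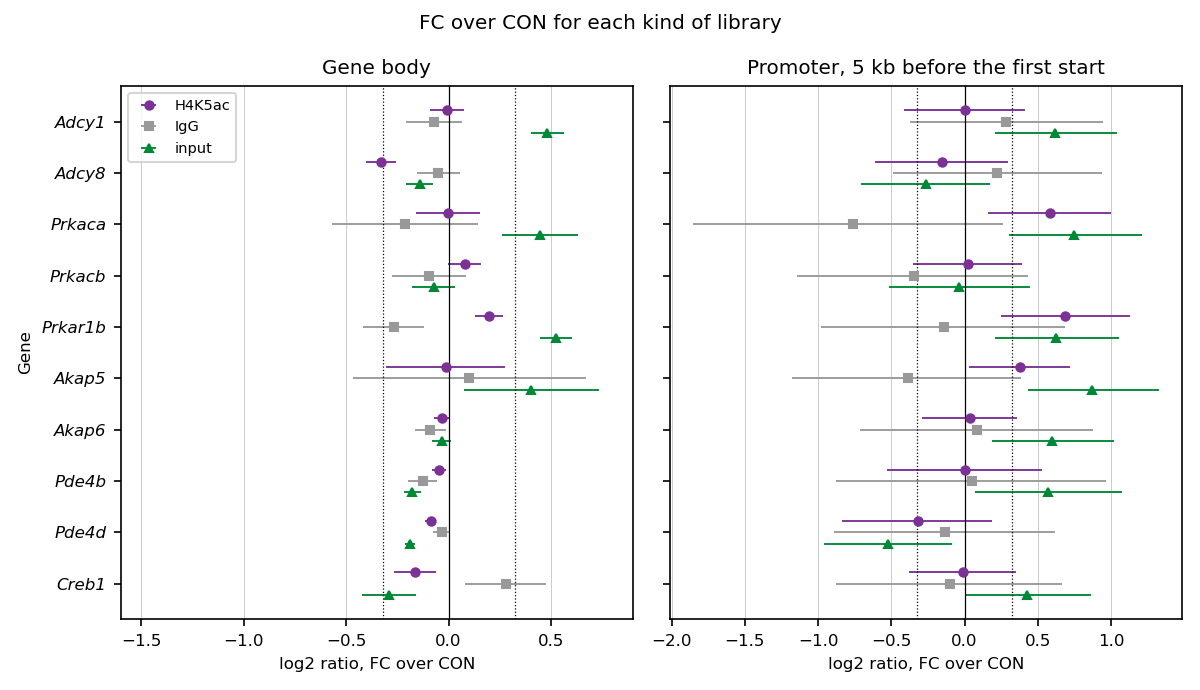
Log2 ratio of FC over CON (x axis) for the 10 genes (y axis) in the gene body (left) and promoter (right), with circles for H4K5ac-ChIP, squares for IgG-IP, triangles for input, bars for exact 95% intervals and dotted lines at log2 ratios of -0.32 and 0.32. In the gene body, the circle of Adcy8 alone lies outside the dotted lines, and the triangles of Adcy1, Prkaca, Prkar1b and Akap5 lie right of 0.

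In the promoters, H4K5ac-ChIP exceeded IgG-IP by at least 1.5-fold at 6 of the 10 genes in FC (46.6% of all promoters) and 5 in CON (42.8%). The 5 that passed in both groups were Prkaca, Prkacb, Akap5, Akap6 and Creb1, and Prkar1b passed in FC alone. Over input, 3 promoters passed in FC (25.2% of all promoters) and 4 in CON (36.7%). These 5 kb promoters of the cyclases and phosphodiesterases, taken before the first annotated start alone, passed over neither control. This depended on the length: in promoters of 2 kb, Adcy1 (0.62), Pde4b (1.79) and Pde4d (0.60) passed over IgG-IP in FC, and Adcy8 (1.68) and Pde4d (0.64) in CON. Of the 10 genes, 9 and 7 passed at this length, and of all promoters 58.4% and 53%. Within 1 kb of the coding starts, the log2 ratio over IgG-IP ran from 1.03 to 3.05 at Pde4b in FC and from 1.12 to 2.72 in CON. At Pde4d it ran from -0.63 to 2.29 in FC and from -0.33 to 1.85 in CON. IgG-IP had 2 to 24 reads in these windows. At coding start 1 of both genes, H4K5ac-ChIP was below input in FC.

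Between the groups, 3 promoters were higher in FC past the same limit (17.8% of all promoters) and none was lower (12.4%). Prkar1b had 106 reads in FC and 75 in CON, a log2 ratio of 0.69 (0.25 to 1.13). Prkaca had 113 and 86 reads, with 0.58 (0.16 to 1.00), and Akap5 had 154 and 135 reads, with 0.38 (0.03 to 0.72). At the same promoters, the FC input library was higher than the CON input library by 0.63, 0.75 and 0.87, and the IgG-IP ratio was -0.14, -0.76 and -0.38. The input ratio was thus larger than the H4K5ac-ChIP ratio at Prkaca and Akap5 and slightly smaller at Prkar1b, and its part in these differences was not tested. Less the input ratio, these promoters were no longer higher past the limit, and the promoters past it were lower in FC. Of the promoter of Prkar1b, 4779 of the 5000 bp lie inside the neighbouring gene Heatr2, and 2220 bp of that of Prkaca inside Asf1b, so reads there cannot be told apart from those of the neighbour. The bodies of these neighbours had log2 FC/CON ratios of H4K5ac-ChIP of 0.12 (-0.02 to 0.27) at Heatr2 and 0.31 (0.02 to 0.59) at Asf1b. Their input ratios were larger, with 0.69 (0.54 to 0.84) and 0.36 (0.12 to 0.61). The lowest promoter was that of Pde4d with -0.32 (-0.84 to 0.19), from 57 and 81 reads, which is just inside the limit before rounding.

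Differences over shorter stretches were looked for in 1 kb windows of the gene bodies and promoters, with 1 read per position and strand and at least 20 reads in the H4K5ac-ChIP libraries together. Of the 2608 windows of the 10 genes that passed this minimum, 43 (1.65%) were at least 2-fold higher in FC and 144 (5.52%) at least 2-fold lower. Over all windows the shares were 2.42% and 3.54%. With all deposited reads, 73 of 2738 windows were higher (2.67%, against 3.55% of all windows) and 189 lower (6.90%, against 5%). With at least 40 reads, 8 of 1203 were higher (0.665%, against 1.05%) and 24 lower (1.995%, against 1.28%). Adcy8 held 34 of the lower windows, which is 19.9% of its 171, and 1 higher window. Without Adcy8, 4.51% of the windows were lower and 1.72% higher. Pde4d, with the most windows, had 20 higher and 61 lower of 1060, Pde4b 5 and 19 of 495, and Akap6 6 and 13 of 426. Prkar1b had 5 of 136 in each direction. The remaining 5 genes had from 1 to 4 such windows each per direction.

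The window with the most FC H4K5ac-ChIP reads was the same as in CON at Akap5, Pde4d and Creb1, and another one at the other 7 genes. At Akap6 the FC maximum, 136 kb from the first start, had 56 reads in FC and 34 in CON, and IgG-IP had 5 in both. At Pde4b, 188 kb from the first start, it had 56 and 40 reads, and IgG-IP again 5 in both. At Adcy1 it had 36 and 24 reads, and at Adcy8 26 and 12. A maximum chosen in FC is higher there by its choice, so these values describe the windows and not a difference between the groups.

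To place the 10 genes in their pathway, 73 other genes of cAMP signalling were counted in the same way. Over the gene body, 46 of them exceeded IgG-IP by 1.5-fold in FC and 3 were lower by as much, with a median log2 ratio of 0.79. In CON these numbers were 44, 3 and 0.66. The shares of all genes that exceeded IgG-IP by as much were 55% and 50.6%, with medians of 0.69 and 0.59. The 5th percentile of all genes was -1.53 and -1.66, so at least 5% of all genes were lower by 1.5-fold. Over input, 18 of the 73 passed in FC (22.7% of all genes) and 36 in CON (41.2%). The spread within each role was wide. Among receptors and G proteins, 7 of 12 passed in FC, from -1.05 at the serotonin receptor gene Htr7 to 1.90 at Gnai2, an inhibitory G protein subunit. Among the other cyclases 5 of 8 passed, from 0.07 at Adcy2 to 1.54 at Adcy5. In this ratio Adcy1 lay above Adcy2, whereas Adcy8 was below all 8 of them in FC. In CON, Adcy4 (-0.13) lay below Adcy8, as it did over input in FC (-0.72).

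Of the other PKA subunits and inhibitors, 5 of 7 passed in FC, from -0.55 to 2.05, and both ends were PKA inhibitor genes, Pkib and Pkig. Of the anchoring proteins 6 of 12 passed, from -1.02 at Akap4, a protein of the sperm tail, to 1.38 at Akap1, a mitochondrial anchor. Of the phosphodiesterases 9 of 13 passed, from -0.19 at Pde1c to 1.62 at Pde2a. Of the other cAMP effectors 5 of 10 passed, from -1.25 at Cnga1, a channel subunit of photoreceptors, to 1.83 at Rapgef3, which encodes the cAMP-gated exchange factor EPAC. Of the CREB family and its coactivators 9 of 11 passed in FC and 10 of 11 in CON, from -0.14 at Crem to 1.80 at Crtc1, a coactivator of CREB, in FC. Over input, 5 of these 11 passed in FC and 7 in CON. The shares of all genes were 55% and 50.6% over IgG-IP and 22.7% and 41.2% over input, and no role was tested against them.

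Between FC and CON, 3 of the 73 gene bodies were higher past the limit of 0.32 and 1 was lower, compared with 12.7% and 5.69% of all genes. The higher ones, named because they are few, were Adcy5 (5594 and 5082 reads), Akap4 (44 and 40 reads) and Crtc2 (281 and 230 reads), with log2 ratios of 0.32 (0.27 to 0.38), 0.32 (-0.33 to 0.98) and 0.48 (0.22 to 0.73). Between the input libraries the ratios of these genes were 0.63, -0.72 and 0.27, and between the IgG-IP libraries -0.09, 0.05 and 0.33. The lower one was Akap14 with -0.36 (-0.65 to -0.08), and its ratios were 0.23 between the input and 0.12 between the IgG-IP libraries. The median of the list was -0.0044. In the promoters, 9 of the 73 were higher and 6 lower, compared with 17.8% and 12.4% of all promoters, with a median of 0.03.

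The protein-coding genes outside the list whose gene body densities over the 6 libraries were most like the median of the 10 genes were Baz2b, Prkd3 and Usp15, at Euclidean distances of 0.075, 0.082 and 0.092 on the log2 scale. At Baz2b, H4K5ac-ChIP was 0.657 RPKM in FC and 0.702 in CON, compared with medians of 0.688 and 0.704 over the 10 genes. The order of the 10 genes by H4K5ac-ChIP density in the gene body was Prkacb, Prkaca, Prkar1b, Pde4b, Akap6, Akap5, Creb1, Adcy1, Pde4d and Adcy8 in FC. In CON, Prkaca and Prkacb were first, with overlapping intervals, followed by Pde4b, Akap6, Prkar1b, Creb1, Akap5, Adcy1, Pde4d and Adcy8. In FC, neighbours in this order whose intervals overlapped were Prkacb and Prkaca, Prkaca and Prkar1b, Akap6 and Akap5, Akap5 and Creb1, and Creb1 and Adcy1. In CON they were also Prkar1b and Creb1, Creb1 and Akap5, Akap5 and Adcy1, and Pde4d and Adcy8. In both groups Adcy1, Pde4d and Adcy8 were the last 3.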

How the data were processed

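The 6 libraries of mouse hippocampal chromatin were H4K5ac-ChIP, IgG-IP and input for FC and CON. The authors sequenced SOLiD reads, aligned them to mm9 with Bioscope, allowing reads with several mappings, and deposited single aligned reads with a mapping quality as the score, which ran from 4 to 100. The deposited reads are not normalized, and 11.5% to 17.8% repeated a position and strand.

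A read was counted in every interval it overlapped by 1 bp. The gene body ran from the first start to the last end of the annotated gene, and the promoter was the 5 kb before it. Of the records named Pde4d in the annotation, the longest was used. Stretches, bins of the body, 100 kb flanks and the 10 kb steps counted from the first start used the midpoint of the read. The 10 kb windows inside gene bodies were counted by overlap. Coding starts less than 1 kb apart were joined. Density was scaled to all reads of a library. Genes needed 20 reads over both libraries. Ratios have exact Clopper-Pearson intervals and densities exact Poisson intervals. Calls were 1.5-fold over a control library, 1.25-fold (a log2 ratio of 0.3219) between groups and 2-fold in 1 kb windows. Counting was tested on simulated data.

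Python 3.11.15, NumPy 2.4.6, SciPy 1.17.1, pandas 2.3.3 and matplotlib 3.10.9 were used. All 10 genes were named, and of the wider list the highest and lowest gene per role over IgG-IP in FC. The genes and lists were chosen with earlier results of these data known. Of the wider list, 1 gene is not reported here and was left out of its counts. The alternatives were other reads (1 per position and strand, midpoint, score of 20 or more), input as control, other scalings, a 2 kb promoter, and other window minimums. The 2 kb promoter for FC over CON, the flanks and the windows without Adcy8 were chosen after seeing the data.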

Additional observations from a re-analysis of the deposited data

Results flagged for a closer look

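Over input, the bodies of Adcy1 and Adcy8 had opposite signs in the groups, and at Adcy1 the intervals left out 0 in both. At Adcy8 the log2 ratio was -0.12 in FC and 0.06 in CON, where the interval included 0. At Adcy1 the log2 H4K5ac-ChIP/input ratio was -0.12 in FC, with 2137 and 3349 reads, and 0.37 in CON, with 2445 and 1863 reads. The difference between the groups was not tested, since there is 1 library of each kind. H4K5ac-ChIP itself differed by -0.01 between FC and CON, and the input libraries by 0.48, compared with a median of 0.46 for genes matched for GC content. Over IgG-IP the ratio of Adcy1 had the same sign in both groups.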

How the results depend on the processing

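Counts of genes were recomputed with other reads and scalings, those over IgG-IP also with input as control, and counts of 1 kb windows with other reads and another minimum. Counted at the midpoint, or in the gene body without stretches of other genes, the counts over IgG-IP did not move. Less the median of all genes, the bodies past 1.5-fold over IgG-IP numbered 2 in FC and 0 in CON, the promoters in CON 1, and the promoters lower in FC than in CON 1. With input as control, 3 promoters passed in FC. With promoters of 2 kb, 9 passed over IgG-IP in FC and 7 in CON. For FC over CON, the lower gene bodies numbered 0 relative to genes matched for GC content and 4 less the input ratio, among which Adcy8 was not, and the higher ones 1 less the IgG-IP ratio. Promoters lower in FC numbered 1 with 1 read per position and strand, with a score of at least 20, or less the IgG-IP ratio, and 5 less the input ratio, which left 0 higher. Prkaca and Akap5 then turned to promoter log2 ratios of -0.17 and -0.50. With at least 40 reads, 8 windows of 1 kb were higher and 24 lower, and with all deposited reads 73 were higher. The construction of each alternative apart, the cause of these moves was not tested. Promoter and start-site values rest on few IgG-IP reads, from 13 to 43 per promoter, and their intervals are wide. No paired analysis was possible because the labels carry no replicate numbers and each group has 1 library per antibody.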
